A study of Bos taurus with 138 samples.

Results

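The genes described here encode the kinase machinery that takes the bovine oocyte through meiosis: CDK1, its partners CCNB1, CCNB2, CCNB3 and CKS2, its inhibitory kinase WEE2, the activating phosphatases CDC25A, CDC25B and CDC25C, and the kinase MOS. These 10 genes were taken by symbol from the 16706 gene symbols of the count table, and all 10 were present and passed the filter on low counts in both statistical models. Maturation-promoting factor is the complex of CDK1 with a B-type cyclin. It is held inactive in the arrested oocyte by phosphorylation of CDK1, is switched on by CDC25 phosphatases, and drives germinal vesicle breakdown and the meiotic divisions. MOS starts the MAP kinase cascade that keeps the mature oocyte arrested at metaphase II until fertilization. The transcribing growth phase ends before maturation, so the proteins needed for it are made from stored maternal mRNA, and the comparisons here address where these mRNAs sat on ribosomes at each stage.

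RNA was measured by sequencing at 6 stages of Bos taurus: germinal vesicle (GV) oocytes, in vitro matured metaphase II (MII) oocytes, and in vitro produced 2-cell embryos, 8-cell embryos, morulae and blastocysts. Oocytes came from slaughterhouse ovaries, and embryos were sired with semen of a single bull. All groups were pools of oocytes or embryos, which the study describes as freed of cumulus cells and zona. Pools for gradients were treated with cycloheximide, which holds ribosomes on mRNA, and their lysates were spun through sucrose so that mRNA carrying more ribosomes moved further. Each gradient was cut into 10 fractions, of which the study calls F1 and F2 free RNA, F3 to F5 monosomes, F6 and F7 intermediate, and F8 to F10 polysomes. There were 2 gradients (A and B) per stage, which gave 120 fraction libraries, and 3 transcriptomes (A, B and C) of whole oocytes or embryos per stage, which gave 18 libraries. All cDNA was primed from poly(A) tails and amplified. No genotype, strain or other treatment differed between stages in the labels, and nothing in the labels says that the letters mark separate animals, so p-values measure the spread between these libraries.

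Levels are CPM, counts scaled to the library total with TMM factors. Each fraction library was scaled to its own total, so a profile does not hold the amount of RNA in a fraction. Totals were 1229382 to 17342859 counts per fraction library and 3269386 to 11812567 per transcriptome. The library most like a fraction library came from its own stage in 118 of 120 cases. The exceptions were MII F9 of gradient B and morula F7 of gradient A, and MII F10 of gradient B stood apart from its stage with a median r of 0.655. So did F1 (0.692) and F6 (0.757) of 2-cell gradient A and F1 of blastocyst gradient B (0.577). These libraries enter the F8 to F10 shares given for their stages. The 5 oocyte markers in the table summed to between 11060 and 13331 CPM in GV and MII transcriptomes and to at most 105 CPM in morulae. Markers of cumulus and granulosa cells, 8 genes, summed to 32.3 to 41.8 CPM in GV transcriptomes and 252 to 342 CPM in MII transcriptomes. In 4 of the 8 genes every MII transcriptome lay above every GV transcriptome: HAS2 averaged 31.2 CPM in GV and 165 CPM in MII, TNFAIP6 0.049 and 114 CPM, CYP11A1 0.032 and 14.7 CPM, and PTX3 1.04 and 8.61 CPM. The others overlapped, and of these the receptors FSHR and AMHR2 had at most 3 counts in any of the 6 libraries. The 8 markers summed to 108 to 122 CPM in 2-cell, 154 to 509 CPM in 8-cell, 9.91 to 13.8 CPM in morula and 39.0 to 63.3 CPM in blastocyst transcriptomes. The cumulus markers thus differed between GV and MII and between later stages, and their part in the results was not tested at any step.

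Transcriptomes of oocytes and 2-cell embryos held more MOS, WEE2, CCNB2, CCNB3 and CDC25C than those of any later stage, without overlap. CCNB1 was lowest in blastocysts, CDK1 and CKS2 had their highest mean at the 8-cell stage and CDC25A in blastocysts, and CDC25B had its lowest mean at the 8-cell stage. CDK1, the catalytic kinase, had 315, 380 and 362 CPM in the GV transcriptomes and 164, 206 and 244 CPM in the MII transcriptomes. Its mean was highest in 8-cell embryos (765 ± 165 CPM, SD, n = 3) and lowest in blastocysts (125 ± 15.6 CPM). Those 2 stages lay apart from all others, whereas morulae overlapped GV oocytes and 2-cell embryos overlapped MII oocytes.

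Of the B-type cyclins, which give CDK1 its activity and are destroyed at anaphase, CCNB1 was carried at 1590, 1365 and 1549 CPM in GV and at 1788, 1987 and 2455 CPM in MII. With TMM factors the 3 MII libraries lay above the 3 GV libraries. Without them the 2 stages overlapped, with means of 1729 CPM in GV and 1834 CPM in MII. The 2-cell embryos (1884 ± 142 CPM) overlapped MII. CCNB1 then stood at 1406 ± 301 CPM (SD, n = 3) at the 8-cell stage, 1052 ± 68.3 CPM in morulae and 289 ± 87.9 CPM in blastocysts. The decline was earlier for the other cyclins. CCNB2 went from 1234 ± 238 CPM in GV to 697 ± 100 CPM at the 2-cell stage, 159 ± 8.02 CPM at the 8-cell stage and 40.5 ± 3.05 CPM in blastocysts. CCNB3, a cyclin of meiotic cells, had 680 ± 80.9 CPM in GV, 969 ± 335 CPM at the 2-cell stage and 92.8 ± 39.3 CPM at the 8-cell stage, with the 3 earliest stages overlapping in order of level. CKS2, a small subunit that binds cyclin-dependent kinases, rose and fell. It had 1401 ± 310 CPM in GV, 2690 ± 592 CPM in MII, 1677 ± 381 CPM at the 2-cell stage and 5757 ± 2587 CPM at the 8-cell stage. Morulae had 2397 ± 228 CPM, and blastocysts had the lowest mean, 1178 ± 380 CPM. The 8-cell libraries spread from 3054 to 8211 CPM and overlapped MII.

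WEE2, the oocyte kinase that phosphorylates and holds back CDK1, was read at 515, 357 and 478 CPM in GV, 682, 901 and 828 CPM in MII, and 1102, 1019 and 1208 CPM in 2-cell embryos. These 3 stages did not overlap. In 8-cell embryos WEE2 was at 49.5 ± 15.1 CPM, and in morulae and blastocysts at 2.80 ± 2.32 and 4.04 ± 4.36 CPM, which overlapped. MOS had 547, 576 and 506 CPM in GV, 890, 748 and 839 CPM in MII and 738 ± 241 CPM in 2-cell embryos, and its MII and 2-cell libraries overlapped. It was at 60.2 ± 22.6 CPM at the 8-cell stage, 9.17 ± 6.99 CPM in morulae and 11.9 ± 13.3 CPM in blastocysts. Among the phosphatases that remove the inhibitory phosphates from CDK1, CDC25C followed the same course (650 ± 61.0 CPM in GV and 168 ± 35.6 in 8-cell embryos). CDC25A was lowest in MII (13.8 ± 4.10 CPM) and highest in blastocysts (105, 120 and 139 CPM), with morulae (81.3 ± 15.7 CPM) apart from both. CDC25B stayed between 10.9 ± 2.21 CPM in 8-cell embryos and 26.4 ± 6.57 CPM in GV.

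**Figure D1:**
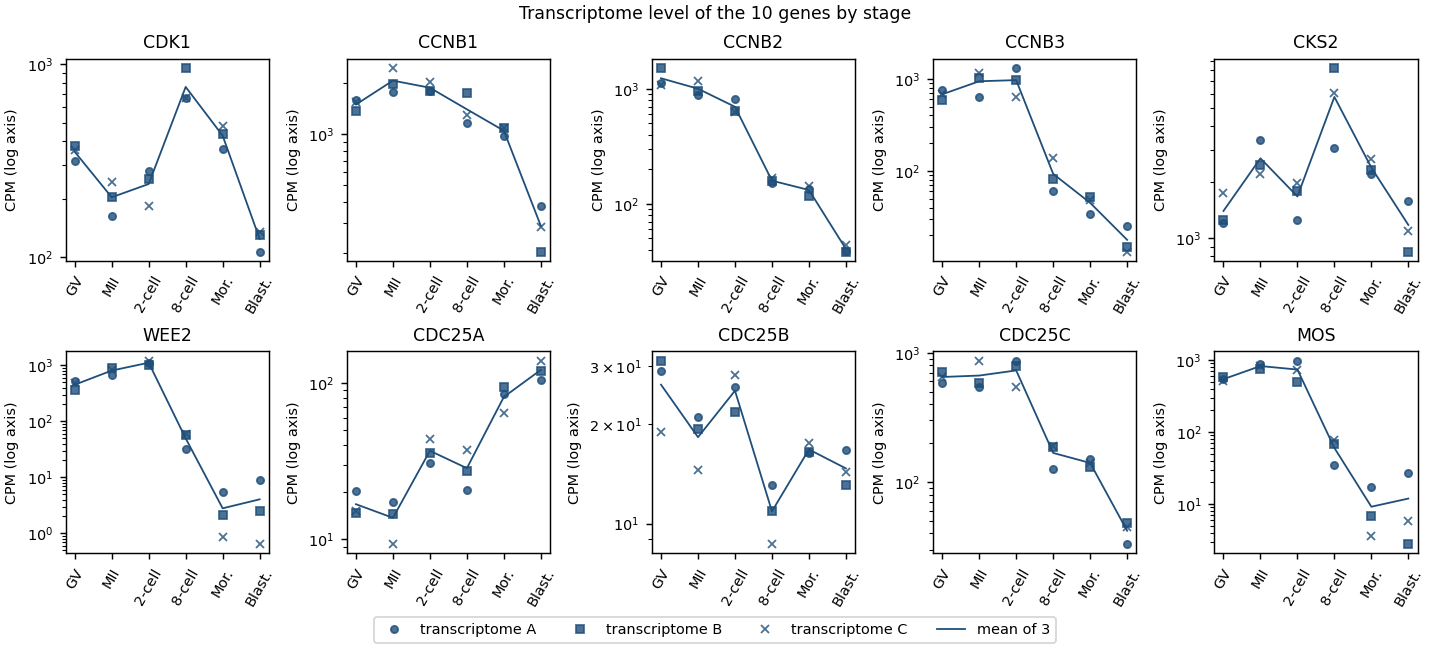
Transcriptome level of the 10 genes (CPM with TMM factors, log axis) at the 6 stages; markers are the 3 transcriptomes and the line is their mean. MOS stood at 543 CPM in GV and 60.2 CPM in 8-cell embryos, and CKS2 at 1401 and 5757 CPM.

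Changes between neighbouring stages were tested with edgeR's quasi-likelihood F test, and a gene was called at an adjusted p under 0.05 (Benjamini-Hochberg over 14612 genes) with a fold above 2. Log2 fold changes are given with their standard errors (SE). From GV to MII 0 of the 10 genes were called in the transcriptome, where 17.1% of all genes were. At an unadjusted p under 0.05 there were 3, and DESeq2 called 1, CKS2. From MII to 2-cell embryos only CDC25A of the 10 rose (1.24, SE 0.37, adjusted p = 0.0266), against 12% of all genes called. The call was lost without transcriptome B or C of either stage (1.07 without 2-cell transcriptome C).

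The step to 8-cell embryos moved most of the genes: 8 of 10 were called, against 50.1% of all genes, which makes this the common case there. MOS fell by 3.87 on the log2 scale (SE 0.60, adjusted p = 1.1e-05), WEE2 by 4.74 (SE 0.53), CCNB3 by 3.63 (SE 0.39), CCNB2 by 2.38 (SE 0.26), CDC25C by 2.37 (SE 0.29) and CDC25B by 1.46 (SE 0.30). CDK1 rose (1.43, SE 0.31, adjusted p = 5.6e-04) and so did CKS2 (1.52, SE 0.33, adjusted p = 5.1e-04). The median of the 10 genes was -1.91, beside 0.03 over all genes tested. All 8 calls were made again in every refit that left out 1 library.

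From 8-cell embryos to morulae 4 of 10 were called (14.4% of all genes): MOS fell by 2.66 (SE 0.58) and WEE2 by 4.08 (SE 0.54), CKS2 was 2.30-fold lower (SE 0.33 on the log2 scale), and CDC25A rose by 1.57 (SE 0.37). CKS2 rested on 8-cell transcriptome B, without which its difference was -0.86 and was not called, and leaving out morula transcriptome A or B also ended the call. From morulae to blastocysts 5 of 10 fell (21.6% of all genes were called), namely CCNB1 by 1.72 (SE 0.24), CDK1 by 1.64 (SE 0.32), CDC25C by 1.60 (SE 0.28), CCNB2 by 1.56 (SE 0.25) and CCNB3, which was 2.29-fold lower (SE 0.37 on the log2 scale). The call of CCNB3 was lost in 4 of these refits, without transcriptome B or C of either stage (-1.12 to -1.01). In bulk samples of blastocysts, fewer cells of a type and less RNA per cell cannot be told apart.

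The place of these mRNAs on the gradient was compared between GV and MII oocytes, and profiles differed in both directions, as they did over all genes. In the test of the shift given below, 0 of the 10 genes were called. For each gradient the share of a gene's CPM, summed over F1 to F10, that lay in F8 to F10 was taken as a description of the profile. The median share over 12929 genes was 28.2% in GV and 27.7% in MII. MOS, CCNB1 and WEE2 had a larger share in MII than in GV in both gradients, and CDK1, CCNB2, CCNB3, CDC25A and CDC25C a smaller one. Thus 3 of 10 genes were higher without overlap, where 23.5% of all genes were, and 5 of 10 were lower, where 27.4% were; 50.9% of all genes did not overlap in either direction.

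MOS held 16.5% and 17.6% of its profile in F8 to F10 in the GV gradients A and B, and 28.6% and 36.7% in the MII gradients. The difference of 15.6 percentage points came with little change in F8 to F10 itself, where the mean level was 3579 and 3706 CPM in GV and 3959 and 5167 CPM in MII. The larger difference was in free RNA. In F1 and F2 MOS averaged 9739 and 13304 CPM in GV and 6880 and 5396 CPM in MII, and in F3 to F5 6119 and 4284 CPM in GV and 2849 and 2789 CPM in MII. The high value of gradient B in MII lay in F10, with 8501 CPM against 3754 CPM in gradient A, the library that stood apart from its stage. Without that gradient the difference in share was 11.6 points, and over F8 and F9 of F1 to F9, an alternative chosen after the data were seen, it was 7.98 points with no overlap.

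CCNB1 had an F8 to F10 share of 29.0% and 19.5% in GV and 35.5% and 40.0% in MII, and the monosome peak seen in GV was not seen in MII. In F3, its highest fraction in GV, CCNB1 was at 2233 and 2357 CPM in GV and at 417 and 441 CPM in MII. In F8 to F10 its mean was lower in MII as well, with 1016 and 724 CPM in GV and 462 and 501 CPM in MII. The larger share of CCNB1 in MII thus went with a lower mean in F1 to F2, F3 to F5, F6 to F7 and F8 to F10 of both gradients. Its mean transcriptome level was higher in MII, with overlap of the libraries when TMM factors were left out. WEE2 had its peak in F4 of GV oocytes, at 695 and 1488 CPM, and 244 CPM in F4 of MII gradient A. Its mean in F8 to F10 was 186 and 152 CPM in GV and 121 and 133 CPM in MII, and its share went from 18.3% and 9.54% to 22.1% and 24.8%.

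CDK1 showed the opposite pattern. Its F8 to F10 share was 38.7% and 41.0% in GV and 11.7% and 11.6% in MII, a difference of -28.1 points. Its mean in F8 to F10 was 38.1 and 51.1 CPM in GV against 14.3 and 18.4 CPM in MII, and in F3 to F5 34.8 and 36.9 CPM against 65.9 and 83.5 CPM. Relative to the library totals, CDK1 was thus lower in F8 to F10 and higher in F3 to F5 of MII, in both gradients, with no overlap. MII F10 of gradient B read 0.405 CPM of CDK1 where gradient A read 20.7, and with that gradient left out the difference stayed at -28.1 points.

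CCNB2 held 44.5% and 36.0% of its profile in F8 to F10 in GV and 14.4% and 24.6% in MII. Its level in F3 to F5 was 435 and 467 CPM in GV and 1540 and 2022 CPM in MII. Relative to the library totals CCNB2 was thus higher in F3 to F5 of MII, while its transcriptome level overlapped between the stages. CCNB3 went from 51.3% and 50.6% to 26.6% and 43.0%, CDC25C from 37.9% and 33.8% to 17.8% and 23.2%, and CDC25A from 31.0% and 42.5% to 18.1% and 21.7%. CDC25A overlapped when only F8 and F9 of F1 to F9 were used (-3.37 points). CDC25B (28.4% and 28.9% in GV, 31.8% and 26.2% in MII) and CKS2 (42.8% and 54.5% in GV, 42.5% and 60.3% in MII) overlapped. CKS2 was in both stages higher in F8 to F10 than in F3 to F5. In GV the pools averaged 352 and 108 CPM, without TMM factors. In MII the fractions had 173 to 640 CPM in F8 to F10 against 36.9 to 106 CPM in F3 to F5. F1 and F2 were outside this comparison, and the edgeR test of heavy against light pools, given below, called CKS2 in neither stage. The direction for CDC25B and CKS2 depended on the scaling, since without TMM factors the differences were -3.31 and -2.41 points, with no overlap for CDC25B, and over F3 to F10 CKS2 was 16.4 points higher in MII with no overlap.

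**Figure D2:**
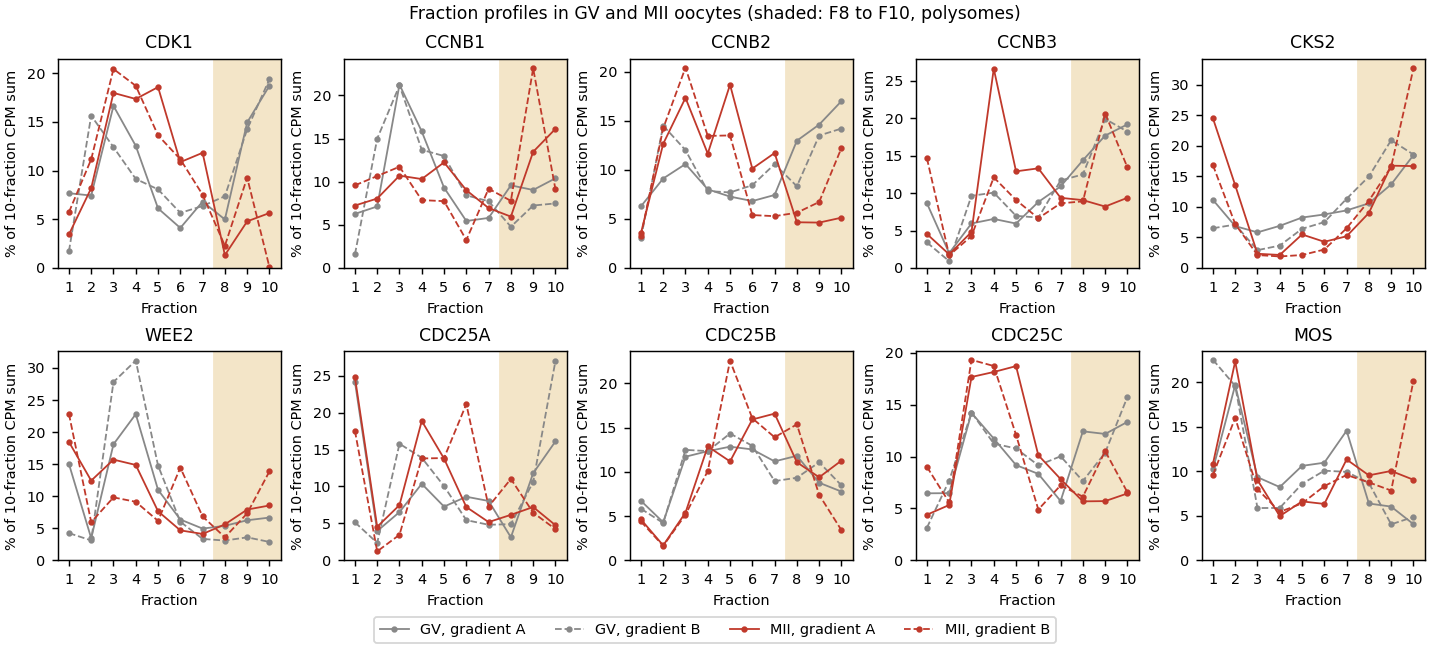
Fraction profiles of the 10 genes in GV (grey) and MII (red) oocytes, as the percent of the CPM summed over 10 fractions in each fraction; solid lines are gradient A, dashed lines gradient B, and shading marks F8 to F10. CDK1 ended at the heavy end in GV and in F3 to F5 in MII, and the F3 peak of CCNB1 was seen in GV alone.

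The shift was tested as the difference between MII and GV in the heavy pool (F8 to F10) relative to the light pool (F3 to F5), with the gradient as a block. By edgeR's quasi-likelihood F test 0 of the 10 genes, and 0% of all 14873 genes, were called. At an unadjusted p under 0.05 there were 918 genes, 4 of them members: CCNB2 (-1.90, SE 0.43, adjusted p = 0.25), CDK1 (-2.29, SE 0.67, adjusted p = 0.42), CCNB1 (1.44, SE 0.47, adjusted p = 0.516) and CDC25C (-1.28, SE 0.54, adjusted p = 0.761). DESeq2 called 326 genes, among them CDK1 and CCNB2, and the likelihood ratio test called 144, among them CCNB2. For MOS the difference was 1.14 (SE 0.63, adjusted p = 0.933) and for WEE2 1.80 (SE 0.92, adjusted p = 0.901). With 2 gradients per stage, the F8 to F10 shares of MOS, CCNB1, WEE2, CDK1, CCNB2, CCNB3, CDC25A and CDC25C differed without overlap. In the heavy pool relative to the light pool, none of these genes passed the test across all genes.

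The level in the polysome pool, relative to the pool's own total, was compared next. From GV to MII 0 of 10 genes were called, against 5.37% of all genes, and 5 had an unadjusted p under 0.05. The nearest was CDK1 (-1.18, SE 0.38, adjusted p = 0.0722), which both DESeq2 (-1.17) and the likelihood ratio test called. MOS differed by 0.34 (SE 0.66) and CDC25B by 0.83 (SE 0.35, adjusted p = 0.182). The median of the 10 genes was -0.26, beside 0 over all genes.

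The test of the polysome pool relative to the transcriptome, an interaction term, called 1 of the 10 genes between GV and MII, against 10.6% of all genes. This was CCNB1, whose polysome pool differed by -0.68 (SE 0.28) and whose transcriptome differed by 0.51 (SE 0.23), so that their difference was -1.19 (SE 0.37, adjusted p = 0.0375). The 2 polysome pools of MII lay below both of GV, and with TMM factors the 3 transcriptomes of MII lay above all of GV. Without TMM factors these transcriptomes overlapped. The call was lost in 8 of the 10 refits that left out 1 GV or MII library (those without GV polysome A, MII polysome A or B, any GV transcriptome, and MII transcriptome B or C), where the difference lay between -1.28 and -0.95, and with F9 and F10 alone (-0.94). For CDC25B the difference was 1.32 (SE 0.45, adjusted p = 0.0634), and for CCNB3 -1.47 (SE 0.56, adjusted p = 0.0989). So relative to the transcriptome CCNB1 was lower on polysomes in MII, although the share of its own gradient lying in F8 to F10 was larger.

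**Figure D3:**
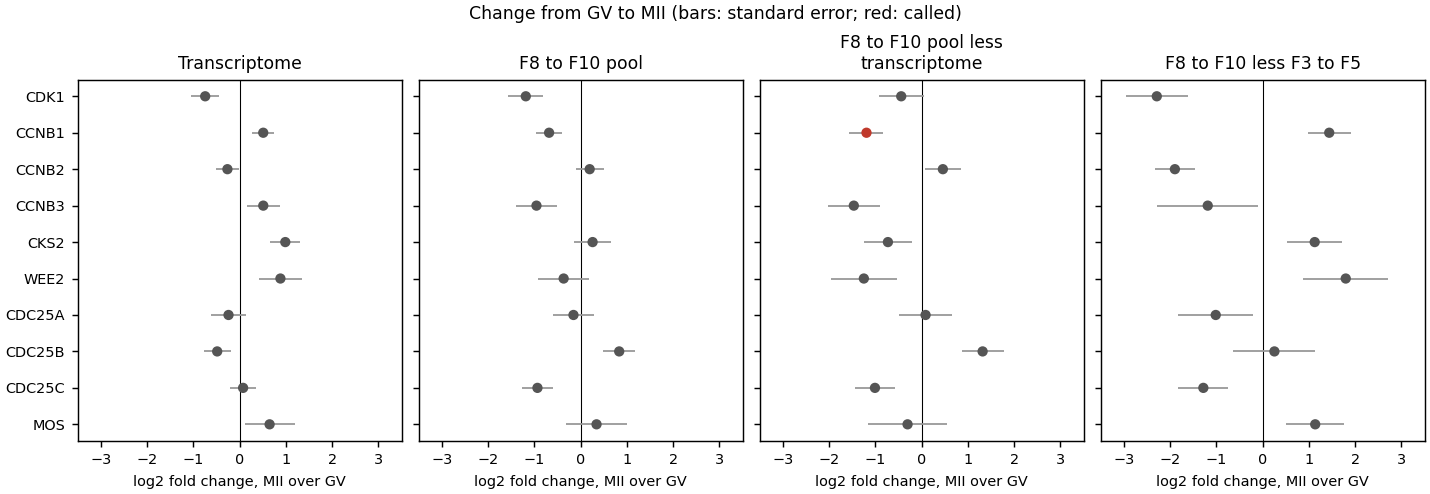
Log2 fold change from GV to MII of the 10 genes in the transcriptome, in the F8 to F10 pool, in that pool relative to the transcriptome, and in that pool relative to F3 to F5; bars are standard errors and red marks a call. CCNB1 in the third panel (-1.19) was the only call, and CDK1 in the fourth (-2.29) lay farthest from 0.

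After maturation, the polysome pool was compared between neighbouring stages. From MII to 2-cell embryos 1 of 10 genes was called, against 8.51% of all genes: CCNB2 fell by 1.05 (SE 0.30, adjusted p = 0.0297). It rested on MII gradient B, without which the difference was -0.46, and the call was also lost without either 2-cell gradient (-1.08 and -1.03) or without F10 (-0.90). From 2-cell to 8-cell embryos 6 of 10 were called (46.2% of all genes). CKS2 rose (2.25, SE 0.41), and WEE2 fell by 2.72 (SE 0.59), CCNB3 by 2.52 (SE 0.46), CDC25C by 1.92 (SE 0.35), MOS by 1.85 (SE 0.68) and CDC25B by 1.29 (SE 0.35). All genes had a median of -0.26 in this comparison. MOS, with an adjusted p of 0.0283, lost its call in each of the 4 refits without a 2-cell or 8-cell pool, and CDC25B lost it without 8-cell gradient B (-0.92).

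From 8-cell embryos to morulae 5 of 10 were called in the polysome pool (36.2% of all genes): MOS fell by 3.45 (SE 0.72), CCNB3 by 3.65 (SE 0.49), WEE2 by 2.63 (SE 0.59) and CDC25B by 1.40 (SE 0.35), and CDC25A rose by 2.51 (SE 0.47). CDC25B lost its call without 8-cell gradient A (-0.90). The morula gradients differed from each other, with 51.2 and 234 CPM of MOS in F8 to F10 of A and B. From morulae to blastocysts 4 of 10 were called (13.9% of all genes), and 3 of these calls depended on single pools. MOS fell by 2.82 (SE 0.70), and its call was lost without morula gradient B (-1.62) and without either blastocyst gradient (-2.88 and -2.74). CCNB1 fell by 1.02 (SE 0.29), and its call was lost without morula gradient A (-0.66) and without either blastocyst gradient (-1.09 and -0.94), and also with DESeq2 and RLE normalization (both -0.93) and without the filter (under 2-fold). CCNB3 rose by 1.39 (SE 0.45), and its call was lost without morula gradient A (1.65) or B (1.17), without blastocyst gradient B (0.40), and with F9 and F10 alone (0.88). WEE2 had 0 counts in the F8 to F10 pools of both blastocyst gradients, and against the floor of 3 counts per pool it was at least 60.3-fold lower than in morula pools.

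**Figure D4:**
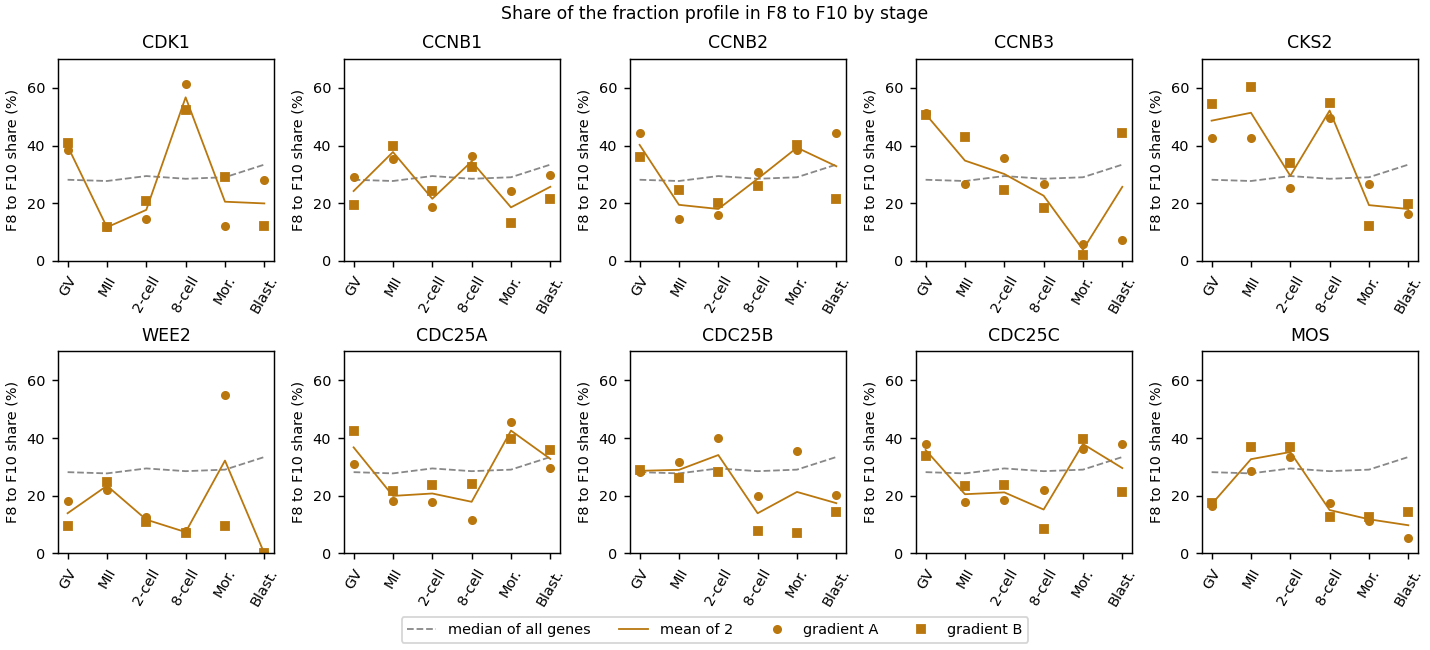
Share of the 10-fraction CPM sum lying in F8 to F10 at each stage; circles are gradient A, squares gradient B, the line is their mean and the dashed line the median of all genes. CDK1 was at 11.6% to 11.7% in MII and 52.2% to 61.3% in 8-cell embryos, and MOS lay above the dashed line in MII and 2-cell embryos.

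The profiles in embryos continued to differ between the genes. The F8 to F10 share of MOS was 33.3% and 36.9% at the 2-cell stage, 17.3% and 12.7% at the 8-cell stage and 5.20% and 14.3% in blastocysts. That of CDK1 was 14.6% and 20.8% at the 2-cell stage and 61.3% and 52.2% at the 8-cell stage, and CKS2 was at 25.2% and 33.9% and then 49.5% and 54.8%. For CDK1, CKS2 and MOS the gradients of these 2 stages did not overlap. WEE2 stayed low, with 12.6% and 10.8% at the 2-cell stage and 7.61% and 7.15% at the 8-cell stage, and in morulae its gradients disagreed (55.0% and 9.34%) at levels under 26 CPM in F3 to F5. CCNB3 had its smallest share in morulae, at 5.90% and 1.90%.

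Heavy and light pools were compared within each stage by the edgeR quasi-likelihood F test with the gradient as a block. In GV oocytes 0 of the 10 genes were called (0.269% of 14873 genes) and 3 had an unadjusted p under 0.05; DESeq2 called CKS2 (1.49), WEE2 (-2.32) and CCNB1 (-1.09). In MII oocytes again 0 were called (0.202% of all genes) and 4 had an unadjusted p under 0.05; the nearest was CKS2 (2.61, SE 0.44, adjusted p = 0.056), and DESeq2 called CKS2, CDK1 (-2.10), CCNB2 (-1.40) and CDC25C (-1.37). In 2-cell embryos edgeR called 0% of all genes and 0 members (941 genes and 4 members at an unadjusted p under 0.05), and DESeq2 called CDK1 (-1.34) and CCNB2 (-1.21). The 8-cell stage had 8.74% of genes called and 3 of the 10: CKS2 was higher in the heavy pool (2.20, SE 0.43, adjusted p = 0.0195), and WEE2 (-2.82, SE 0.68, adjusted p = 0.0361) and CDC25C (-1.76, SE 0.40, adjusted p = 0.0264) were lower. In morulae 0 were called (1.41% of genes; 4 at an unadjusted p under 0.05), where DESeq2 called MOS (-2.11), CCNB3 (-4.24) and CCNB1 (-1.59). In blastocysts 2 of 10 were called (1.31% of genes): MOS was lower in the heavy pool (-2.62, SE 0.49, adjusted p = 0.0376), and WEE2, at 0 counts there, was at least 9.03-fold lower than in the light pool, where it had 24 and 5 counts in gradients A and B. That limit rested on these few counts, at 3.11-fold without light pool A and 14.9-fold without light pool B. The 8-cell calls and that of WEE2 in blastocysts were lost without either gradient of the stage, and that of MOS without blastocyst gradient A (-1.63).

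Between the polysome pool and the transcriptome of one stage, 4 to 8 of the 10 genes were called. MOS and CDC25B were higher in the polysome pool and CDK1 and CKS2 lower, in GV, MII, 2-cell, 8-cell and morula samples alike. The difference was not particular to F8 to F10. MOS lay above all 3 transcriptomes in 20 of 20 fraction libraries in GV, and so it did in MII, with 2556 to 14233 CPM in the GV fractions against 506 to 576 CPM in the transcriptomes. CDK1 lay below all 3 transcriptomes of its stage in 117 of 120 fraction libraries, with 6.36 to 72.5 CPM in GV fractions against 315 to 380 CPM. CKS2 lay below in 117 of 120 as well, and CDC25B lay above in 108 of 120. For these 4 genes the folds of the polysome pool were thus shared by F1 to F7. In MII, CCNB1, CDC25C and WEE2 lay below all 3 transcriptomes in 20 of 20 fraction libraries, and CCNB3 in 19. In 2-cell embryos CCNB3 did so in 20, CCNB1 in 19, CDC25C in 17 and WEE2 in 16. In GV oocytes CDC25C lay below in 20 and WEE2 in 14, with 5 above. The lower level of these genes was thus also found outside F8 to F10.

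In GV oocytes 6 of 10 genes were called, against 38.6% of all genes. MOS (2.78, SE 0.60, adjusted p = 7.0e-04) and CDC25B (3.26, SE 0.33) were higher in the polysome pool, and CDK1 (-2.97, SE 0.39), CKS2 (-2.28, SE 0.39), WEE2 (-1.39, SE 0.53) and CDC25C (-1.34, SE 0.32) lower. WEE2, at an adjusted p of 0.0407, lost its call without either GV polysome pool and without GV transcriptome A or C (-1.52 to -1.27). In MII oocytes 8 of 10 were called (56.6% of all genes), with MOS at 2.47 (SE 0.60) and CDC25B at 4.58 (SE 0.34), and with CDK1 at -3.41 (SE 0.40), CKS2 at -3.01, WEE2 at -2.64, CDC25C at -2.34, CCNB1 at -1.96 (SE 0.28) and CCNB3 at -1.65 (SE 0.42). In 2-cell embryos 8 of 10 were called (49.8% of all genes), by name those called in MII and each with the same sign, from -2.92 for CKS2 to 3.79 for CDC25B; the median of all genes was 0.18 there. WEE2 (-1.82) was not called without 2-cell polysome A (-1.75).

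In 8-cell embryos 4 of 10 were called (57.7% of all genes, whose median was -0.26). MOS had its largest difference of the 6 stages there (5.20, SE 0.66), with CDC25B at 3.95, CDK1 at -2.94 and CKS2 at -2.19. In morulae 6 of 10 were called (50.4%), with MOS at 4.41, CDC25B at 1.89, WEE2 at 1.65, CCNB3 at -3.35, CDK1 at -2.55 and CKS2 at -1.84. WEE2 had only 2.80 CPM in the morula transcriptome, and its call was lost without morula transcriptome B (1.49) or C (1.23). In blastocysts 5 of 10 were called (38.9%). CCNB2 (1.18, SE 0.27) and CDC25B (1.08, SE 0.32) were higher in the polysome pool and CDK1 (-1.56) and CKS2 (-1.27) lower, and WEE2, at 0 counts in both pools and 29, 11 and 3 counts in the transcriptomes, was at least 38.8-fold lower, or at least 13.9-fold without transcriptome A. CDC25B there was not called without polysome A (0.91), without transcriptome B (0.96), with DESeq2 (0.93) or with F9 and F10 alone, and CKS2 was not called without polysome A (-1.03) or transcriptome A (-0.98).

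**Figure D5:**
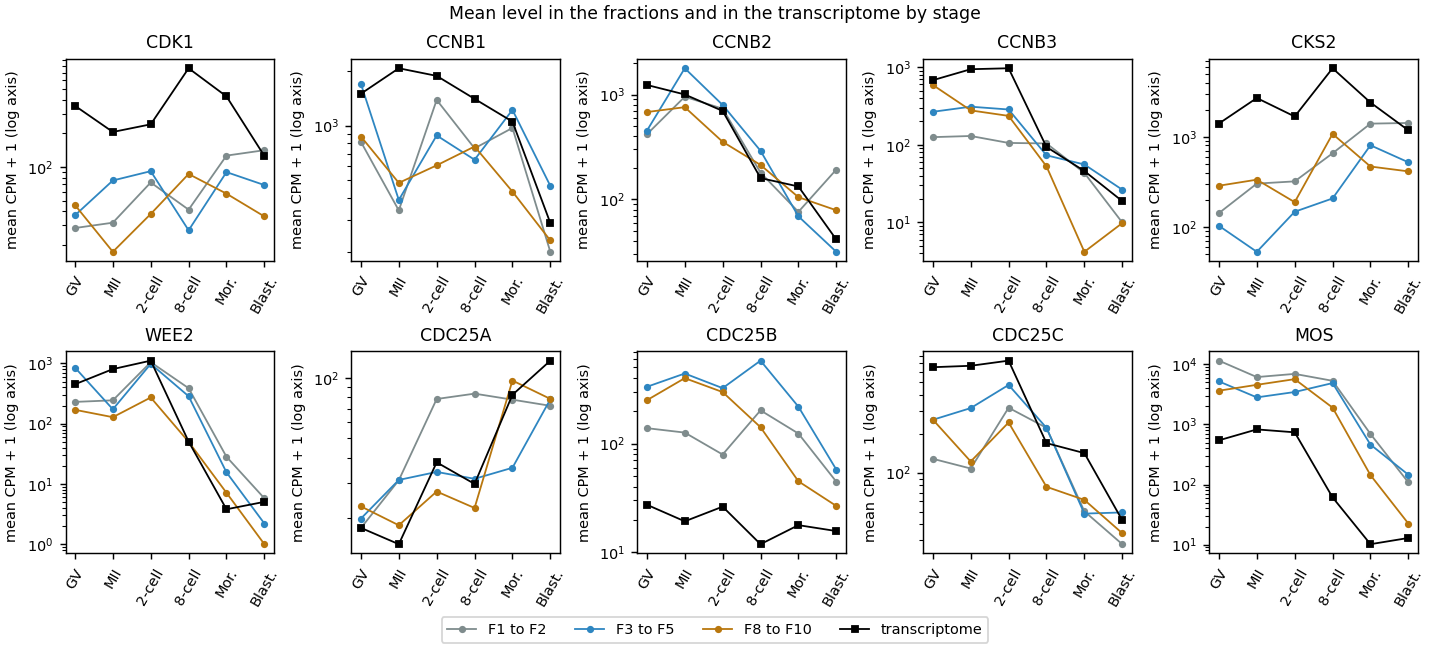
Mean level of each gene (mean CPM + 1, log axis) in F1 to F2, F3 to F5 and F8 to F10 (2 gradients) and in the transcriptome (black, 3 libraries) by stage. For MOS in GV all fraction means (3643 to 11522 CPM) lay above the transcriptome (543 CPM), and for CDK1 all lay below it.

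Other genes of the pathway were followed through a list of 29, all tested, drawn from the MAP kinase branch below MOS, partners of cyclin-dependent kinases, inhibitory kinases, mitotic kinases, and the Greatwall branch with its phosphatases. In the polysome pool from GV to MII 0 of 29 rose and 2 fell, a share near the 5.37% of all genes called, and the list's median was -0.10, beside 0 over all genes. Both encode phosphatase subunits that counter CDK1: PPP2R2A, a regulatory subunit of PP2A, was at 19.9 and 15.2 CPM in F8 to F10 of GV and at no more than 7.09 CPM in MII (-1.54, SE 0.41, adjusted p = 0.0255), and PPP1CC, a catalytic subunit of PP1, at 10.5 and 13.5 CPM and 2.00 and 4.87 CPM (-1.53, SE 0.43, adjusted p = 0.0369). Both calls were lost without either GV gradient and without MII gradient A (-1.02 and -0.99). In the heavy pool relative to the light pool 0 of 29 passed.

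In the transcriptome from GV to MII 3 of 29 rose and 2 fell, a share like the 17.1% of all genes called; these 5 are named because the count is small, after their values were seen. CHEK1, a checkpoint kinase, rose by 1.52 (SE 0.25), BORA, an activator of the Aurora and Polo kinases, by 1.92 (SE 0.31) and TPX2, a spindle cofactor of AURKA, by 1.41 (SE 0.22). PLK1, the Polo kinase, fell by 1.85 (SE 0.39) and PPP1CA, a PP1 catalytic subunit, by 1.40 (SE 0.26). Relative to the transcriptome, the polysome pool was higher in MII than in GV for 3 of 29 and lower for 5, where 10.6% of all genes were called. The 3 were PLK1 (2.75), MAP2K2, a MAP kinase kinase (1.70), and PPP1CA (1.44), and the 5 were WEE1, the somatic counterpart of WEE2 (-3.10, at most 10 counts in any GV or MII transcriptome), BORA (-1.88), PPP1CC (-1.77), TPX2 (-1.44) and CHEK1 (-1.23), also named after their values were seen. PLK1 kept its call in all refits and alternatives run, and the other 7 lost theirs in at least 1 of the refits or alternatives. Of these genes only PPP1CC was also called in the polysome pool itself. That pool differed by 0.04 for BORA, -0.04 for TPX2, 0.05 for PPP1CA, 0.29 for CHEK1 and 0.90 (SE 0.47) for PLK1. These 5 were the genes called in the transcriptome. For MAP2K2 and WEE1 neither the polysome pool nor the transcriptome was called alone.

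At the step from 2-cell to 8-cell embryos 6 of 29 rose and 12 fell in the transcriptome, and 7 rose and 9 fell in the polysome pool, where 50.1% and 46.2% of all genes were called. All 4 mitotic kinases and cofactors fell in the transcriptome, and 3 of the 4 fell in the polysome pool, while of the 8 genes of the Greatwall branch and phosphatases 5 rose and 2 fell in the polysome pool. Against the transcriptome, the polysome pool was lower for 11 of 29 in GV, 16 in MII and 12 in 2-cell embryos, and higher for 7, 5 and 6, where 38.6%, 56.6% and 49.8% of all genes were called in either direction.

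The genes whose pattern was most like that of MOS were sought by Pearson's r of mean log2(CPM + 1) over 66 groups (60 of stage and fraction, 6 of transcriptome) among the genes with a mean of at least 1 CPM. The groups share gradients and libraries, so r is only a description. The highest r with MOS was that of CCNI2 (0.950), KPNA7 (0.948) and SLC12A5 (0.943), with CCNB1 those of AKIRIN2 (0.743), ZBTB37 (0.684) and UBE2D3 (0.676), and with WEE2 those of DUSP10 (0.945), PLEKHG1 (0.938) and DIRAS2 (0.937). Among the 10 genes MOS was most like WEE2 (0.845) and least like CKS2 (-0.58), and CCNB1 was most like WEE2 (0.570). Among all 12928 genes compared, WEE2 ranked only 280 for MOS and 65 for CCNB1. With 0.1 in place of 1 added to the CPM, SLC12A5 ranked 4 for MOS. DUSP10, PLEKHG1 and DIRAS2 then ranked 5, 8 and 14 for WEE2, and the genes named for CCNB1 kept their ranks.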

How the data were processed

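The authors estimated reads per gene with Salmon and deposited expected counts for 16706 symbols in 138 libraries, not normalized; 11.7% of values are not whole. The annotation is Ensembl ARS-UCD1.2 in the methods and UMD3.1 in the submitters' processing notes, so no coordinates or sequences are given. Counts were rounded and tested with edgeR 4.0.16 (R 4.3.3) after filterByExpr. Model 1 held 30 libraries (12 pools of F8 to F10, 18 transcriptomes; 14612 genes), and model 2 held 24 (F8 to F10 and F3 to F5 pools of each gradient; 14873 genes) with the gradient as a block, since both pools come from 1 gradient. SE is the absolute log2 fold change over the square root of F. Tests were two-sided. The same code was run on simulated counts, in which genes had no stage differences beyond the changes put in. Calls there used no fold limit, so that run does not gauge the rule used here on these data. DESeq2 1.42.0, Python 3.11.15, numpy 2.4.6, pandas 2.3.3 and scipy 1.17.1 were also used. The genes, pathway list and alternatives were chosen with earlier results of these data known, except those said to be added after the data were seen. Named were the 10 genes, up to 4 pathway genes per direction called from GV to MII in the polysome pool or in heavy relative to light, and the 3 genes most like MOS, CCNB1 and WEE2. None of 78 pairs of libraries of a group were identical (0 pairs). A count of 0 allows up to 3 counts, and floors cover counting error only.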

Additional observations from a re-analysis of the deposited data

Results flagged for a closer look

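The change from GV to MII oocytes differed between the polysome pool and the transcriptome for 9 of the genes named. The interaction term of the edgeR quasi-likelihood model called them at an adjusted p under 0.05 and a difference above 2-fold. These were 1 of the 10 genes and 8 of the 29 pathway genes, where 10.6% of all genes were called. The pathway genes were named after their values were seen. All but PLK1 lost the call in at least 1 of the refits or alternatives. For CCNB1 the polysome pool went down relative to the transcriptome, with a log2 difference of -1.192 (adjusted p = 0.0375). Among the pathway genes it was also negative for WEE1 (-3.101, adjusted p = 0.0498), BORA (-1.881, adjusted p = 0.012), PPP1CC (-1.772, adjusted p = 0.0387), TPX2 (-1.443, adjusted p = 0.00778) and CHEK1 (-1.23, adjusted p = 0.0424). It was positive for PLK1 (2.748, adjusted p = 0.00421), MAP2K2 (1.698, adjusted p = 0.0216) and PPP1CA (1.444, adjusted p = 0.0236). In the polysome pool alone only PPP1CC of these genes was called. The change of that pool lay between -0.04 and 0.29 for BORA, TPX2, PPP1CA and CHEK1, whose transcriptome levels were called. WEE1 had 3 to 10 counts in the GV and MII transcriptomes. PLK1 averaged 97.9 CPM in GV and 26.3 CPM in MII transcriptomes, and its F8 to F10 level was 1097 and 1103 CPM in GV and 2509 and 1144 CPM in MII.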

How the results depend on the processing

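No called gene changed its direction under any alternative. Of the shares, the GV to MII difference turned for CDC25B (0.34 points) to -3.31 without TMM factors and -1.12 over F3 to F10 and -2.44 without MII gradient A, and for CKS2 (2.74 points) to -2.41 without TMM factors, -0.99 with F8 and F9, -3.13 without GV gradient A and -6.18 without MII gradient B; with F8 to F10 as reported, the GV and MII gradients overlapped for both genes. The median of the 10 genes in heavy relative to light pools from GV to MII turned from -0.38 to 0.02 with F8 and F9. The number of the 10 genes called stayed within 1.5 times its value except as follows. From GV to MII, the transcriptome count of 0 became 1 with no fold limit, with DESeq2 and with RLE normalization, and the polysome count of 0 became 1 with the likelihood ratio test and with DESeq2. The count of 1 in the polysome pool relative to the transcriptome became 2 with the likelihood ratio test and DESeq2, and 0 with no filter, with F9 and F10, and with F8 and F9 as polysomes (the last chosen after seeing the data). From MII to 2-cell embryos the count of 1 became 0 in the transcriptome when F9 and F10 were the pool and 0 in the polysome pool with F8 and F9. For 8-cell polysomes against transcriptome, 4 became 7 with no fold limit. Heavy against light pools gave 1 in GV, 3 in MII, 6 at the 8-cell stage, 3 in morulae and 1 from GV to MII with the likelihood ratio test, and 3, 4, 6, 3 and 2 with DESeq2, which also gave 2 in 2-cell embryos and 5 in blastocysts. In morulae that count was 1 with RLE normalization, no filter or F3 to F7 as light pool; in blastocysts it was 1 with F9 and F10, 1 with F8 and F9, and 0 with F3 to F7. The cause was not tested.

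Leaving out 1 library gave 0 to 1 calls in the transcriptome from GV to MII and from MII to 2-cell embryos, 0 to 1 in polysomes from MII to 2-cell embryos, 1 to 4 from morulae to blastocysts, 3 to 6 for blastocyst polysomes against transcriptome, 0 to 1 for polysomes relative to transcriptome, and for heavy against light 0 at the 8-cell stage and 0 to 1 in morulae and in blastocysts; a lone library was assumed to vary like the other groups. Whether the letters pair gradients and transcriptomes could not be told. Same-letter r lay between -0.20 and 0.07, but heavy and light pools of the same gradient also gave only -0.015 to 0.148. With the letter as a replicate block, 1 gene (CKS2) was called in the transcriptome and 1 (CDK1) in polysomes from GV to MII, and CCNB3 in polysomes from morulae to blastocysts was not. With no replicate block, heavy against light gave 1 call in MII and 1 in morulae. Levels without TMM factors moved by less than 1 SD in 45 of 60 cases. Few counts limit WEE2 in blastocysts, where the lower bounds against the transcriptome and the light pool moved by over 1.5 times without their library A; this was added after seeing the data.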
